A study of Mus musculus with 6 samples.

Results

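The 7 cyclin-dependent kinase (CDK) inhibitor genes of the mouse (Cdkn1a, Cdkn1b, Cdkn1c, Cdkn2a, Cdkn2b, Cdkn2c and Cdkn2d), the genes of the tumour suppressors p53 (Trp53) and RB (Rb1), and the gene of the nuclear lamina protein lamin B1 (Lmnb1) were followed in NOR-10, a line of mouse skeletal muscle fibroblasts. They were chosen by name, with earlier results of these data known, because the study uses D-galactose (D-gal) as a model of senescence. All 10 were found among the 34745 genes of the table. The control group received PBS and the D-gal group 20 mg/mL D-gal for 3 days, with n = 3 RNA-seq libraries in each group (6 in all). Both groups are the same unmodified line, cultured without other treatment named in the labels, so they describe 1 cell line and not a muscle. Nothing in the labels says that replicates came from separate cultures, and p-values therefore measure only the spread between these libraries, which may be technical.

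Total counts ranged from 16876087 to 20830349 per control library and from 13759108 to 15157064 per D-gal library, and the 10 genes together held 0.0895% to 0.0957% of them. Fibroblast markers fitted the label, with a summed level of 7618 to 7813 CPM (counts scaled to the TMM-scaled library size) in the control libraries. That sum was 5000 to 5325 CPM under D-gal, where 6 of the 9 markers tested were lower (Col1a1, Col1a2, Col3a1, Thy1, Dcn and Vim), 1 was higher (Pdgfrb), and the tenth, Lum, had at most 1 count in a library. Markers of other cell types stayed low: 3.68 to 6.08 CPM for 8 myogenic genes (Pax7, Myf5 and Myod1 at 0) and 3.09 to 5.40 CPM for 4 endothelial genes. The 5 leukocyte genes (Cd3e at 0) had 3.73 to 10.7 CPM, summed over 6 entries because Itgam has a further gene ID. The 4 adipocyte genes (Adipoq and Lep at 0) had 0.963 to 2.01 CPM. The part of these marker levels in the results was not tested.

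CDK inhibitors hold the cell cycle back before DNA replication. The INK4 proteins p16 (from Cdkn2a), p15 (Cdkn2b), p18 (Cdkn2c) and p19 (Cdkn2d) bind CDK4 and CDK6 and keep them from the D cyclins, while the CIP/KIP proteins p21 (Cdkn1a), p27 (Cdkn1b) and p57 (Cdkn1c) bind complexes of cyclins with CDKs, above all those of CDK2. Active CDK4, CDK6 and CDK2 phosphorylate RB, which otherwise keeps E2F transcription factors from switching on the genes of DNA replication. p53 is activated mainly as a protein, through release from MDM2, and Cdkn1a is its best known target. In senescent fibroblasts p16 and p21 are the inhibitors most often measured, and loss of lamin B1 is a widely used sign of the state. For NOR-10 under D-gal the study reported higher p16 and p53 protein and β-galactosidase staining, none of which RNA-seq measures.

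On mouse chromosome 4 of GRCm38, GENCODE M21 places Cdkn2b (4:89306299-89311039, minus strand) 11645 bases from Cdkn2a (4:89274471-89294653, minus strand), and the deposited table gives Cdkn2b as 4:89306289-89311032. Cdkn2a has 2 coding transcripts with their own first exons, 12461 bases apart at their starts. The transcript that starts nearer the shared exons encodes p16, and the other, read in another frame, encodes p19Arf, which stabilises p53 by binding MDM2. The annotation gives 575 exon bases to both, 277 to the p16 transcript alone and 320 to the Arf transcript alone. The deposited gene counts add both up, so every Cdkn2a value here is p16 and Arf together.

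**Figure D1:**
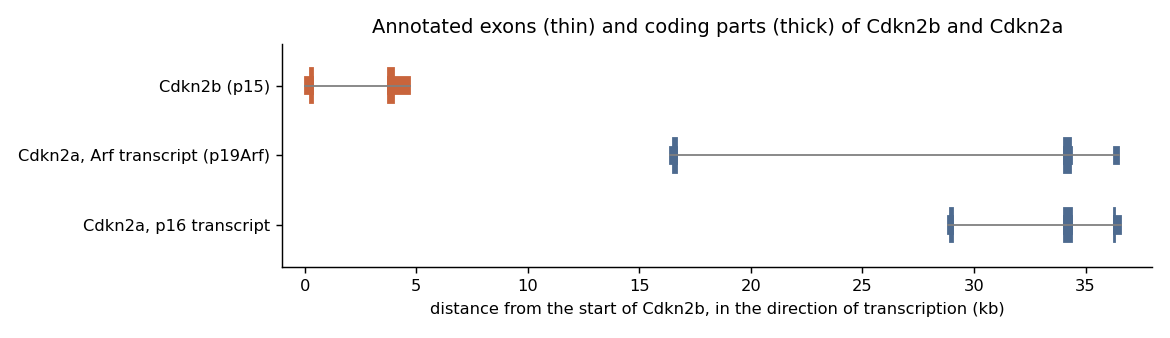
Annotated exons of Cdkn2b and of both Cdkn2a transcripts (GENCODE M21), plotted as distance in kb from the start of Cdkn2b in the direction of transcription; thin boxes are exons and thick boxes their coding parts. The separate first exons of p19Arf and p16 sit 12461 bases apart and join the same second exon.

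The 250 bases before the transcript start are shown for the genes on which the comparisons turn: the neighbours Cdkn2b and Cdkn2a with its pair of starts, Cdkn2c, the INK4 gene with lower counts under D-gal, and Cdkn1a, the p53 target. They are RefSeq sequences of GRCm38.p6 (windows of 7 of the 10 genes were used, 10 windows in all), written 5′ to 3′ on the gene's strand. Capitals mark the motif matches described after them.
Cdkn2b, chr4:89311033-89311282, minus strand: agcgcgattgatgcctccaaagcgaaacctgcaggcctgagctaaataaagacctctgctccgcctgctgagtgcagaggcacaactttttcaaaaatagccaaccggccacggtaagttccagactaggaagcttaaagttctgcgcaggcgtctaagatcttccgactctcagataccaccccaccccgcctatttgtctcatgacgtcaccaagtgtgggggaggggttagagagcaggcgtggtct
Cdkn2a, p16 start, chr4:89282193-89282442, minus strand: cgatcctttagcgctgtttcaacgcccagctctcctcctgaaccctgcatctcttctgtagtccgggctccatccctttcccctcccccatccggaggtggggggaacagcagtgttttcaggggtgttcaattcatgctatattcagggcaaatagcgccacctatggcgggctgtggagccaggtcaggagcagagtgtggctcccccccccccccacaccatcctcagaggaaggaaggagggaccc
Cdkn2a, Arf start, chr4:89294620-89294869, minus strand: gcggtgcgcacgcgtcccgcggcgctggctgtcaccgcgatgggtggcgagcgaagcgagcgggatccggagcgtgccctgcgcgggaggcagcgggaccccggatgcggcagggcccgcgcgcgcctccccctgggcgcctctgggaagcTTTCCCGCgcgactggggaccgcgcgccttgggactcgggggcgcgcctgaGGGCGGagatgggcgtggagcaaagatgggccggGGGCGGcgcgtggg
Cdkn2c, chr4:109666757-109667006, minus strand: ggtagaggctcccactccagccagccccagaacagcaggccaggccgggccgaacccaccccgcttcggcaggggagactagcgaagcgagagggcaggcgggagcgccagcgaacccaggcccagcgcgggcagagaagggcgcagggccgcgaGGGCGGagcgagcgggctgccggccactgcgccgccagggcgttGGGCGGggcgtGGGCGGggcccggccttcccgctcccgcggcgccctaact
Cdkn1a, first start, chr17:29090729-29090978, plus strand: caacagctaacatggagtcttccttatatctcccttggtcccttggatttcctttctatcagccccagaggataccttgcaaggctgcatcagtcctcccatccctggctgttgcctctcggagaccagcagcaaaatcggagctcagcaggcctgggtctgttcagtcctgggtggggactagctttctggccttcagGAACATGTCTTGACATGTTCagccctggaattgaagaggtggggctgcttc

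The motifs searched, on both strands, were the E2F letters TTTCCCGC or TTTGGCGC, the GC box GGGCGG, the CCAAT box CCAAT, and the p53 element, counted as a pair of adjacent sites of 10 bases with at most 1 mismatch outside their cores. Among 32851 windows of 250 bases, one for each start in the table, 1.3% held the E2F letters, 32.7% a GC box, 33.8% a CCAAT box and 0.0457% (15 windows) a p53 element. The window before Cdkn2b and the window before the p16 start held none of them, and their GC content was 53.6% and 60%. The Arf window, with a GC content of 78.4%, held 1 match to the E2F letters at -99 and GC boxes at -48 and -14, counted in bases from the start. The Cdkn2c window (GC content 77.2%) held 3 GC boxes, at -95, -51 and -40, while a second RefSeq start of the gene, at 109665372, had a window with none of the motifs and a GC content of 42.8%. The Cdkn1a window held a p53 element of 20 bases, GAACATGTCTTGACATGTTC, at chr17:29090928-29090947, which ends 32 bases before this start and 2822 bases before the other start of the gene. The window before that other start, with a GC content of 64.8%, held GC boxes at -104 and -46 and no p53 element. A match describes these letters only, and binding was not measured.

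To find out which of the 10 genes differed between the groups, counts were compared with the quasi-likelihood test of edgeR and p-values were adjusted by Benjamini-Hochberg over all 13407 genes tested. All 10 genes were expressed highly enough to be tested. At an adjusted p under 0.05, Cdkn2b, Rb1 and Cdkn2a rose under D-gal and Cdkn2c and Lmnb1 fell, while Cdkn1a, Cdkn1b, Cdkn1c, Cdkn2d and Trp53 did not pass. That is 3 of 10 higher, where 16.9% of all genes tested were higher, and 2 of 10 lower, where 17.8% were lower. In either direction 5 of the 10 (50%) passed, beside 34.8% of all genes. Only Cdkn2b was also changed by a log2 fold change of at least 1, as were 4.21% of all genes. The median log2 fold change of the 10 genes was 0.043, and that of all genes 0.0036.

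**Figure D2:**
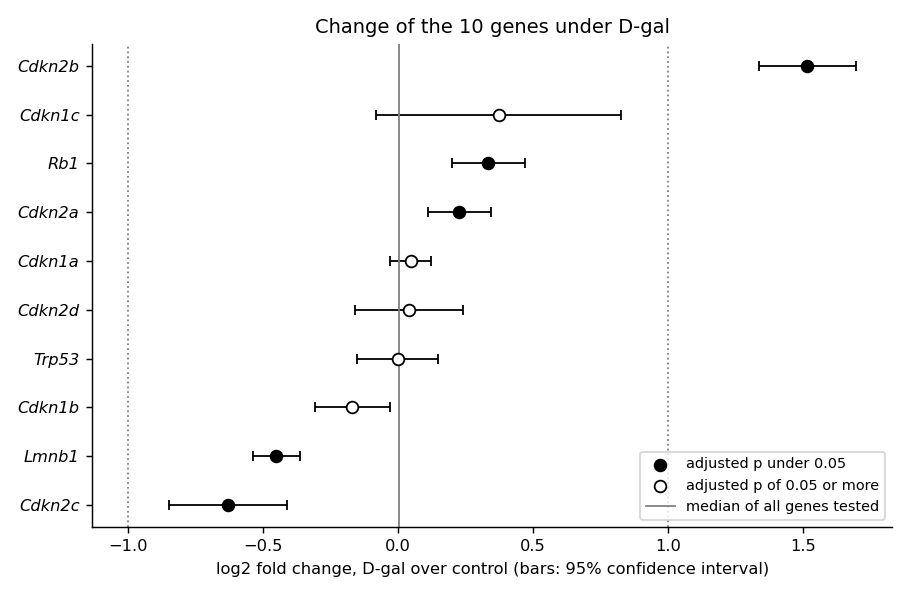
Log2 fold change (D-gal over control) of the 10 genes, with 95% confidence intervals from edgeR; filled points passed an adjusted p of 0.05, and dotted lines mark a log2 fold change of 1 in size. Cdkn2b stands at 1.52 and the other 9 genes lie between -0.63 and 0.37.

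The libraries of the 2 groups did not overlap in 6 of the 10 genes, the 5 that passed and Cdkn1b, whereas this held for 49.1% of all genes tested. For each single gene, the exact permutation test (two-sided) over samples cannot go below p = 0.1, and those 6 genes reached it. Normalized counts, given for each library in the order of its replicate number, are counts put on the mean of the TMM-scaled library sizes. Since these are bulk samples, a lower value may stand for fewer cells with the transcript or for less of it per cell, and these cannot be told apart.

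**Figure D3:**
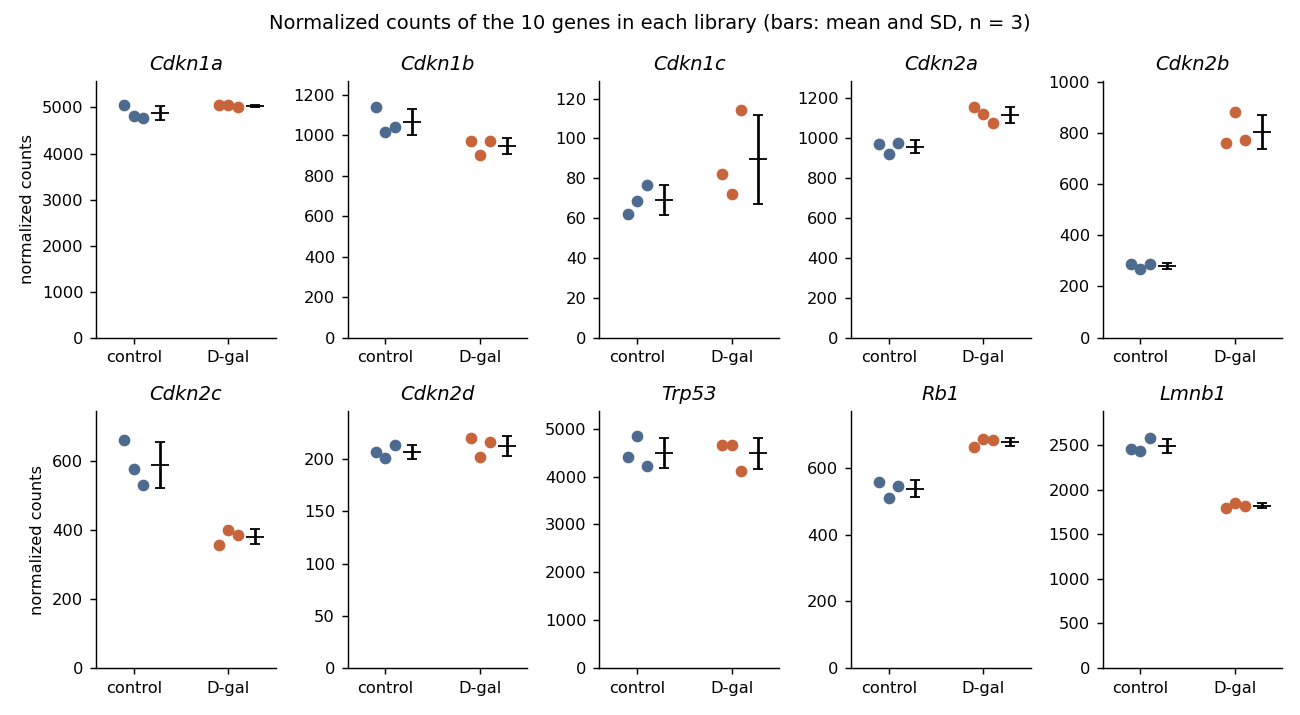
Normalized counts of the 10 genes in each library (points, n = 3 per group; axes start at 0), with the mean and SD beside them. Cdkn2b separates most widely, from 281 in the control group to 803 under D-gal, while the Trp53 groups lie on top of each other at 4492 and 4484.

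Among the INK4 inhibitors, Cdkn2b had the widest change. The control libraries held 289, 268 and 286 normalized counts of Cdkn2b, and the D-gal libraries 760, 880 and 770. Every D-gal library was thus far above every control library, and the D-gal libraries differed among themselves by less than the distance between the groups. The means were 281 ± 11.6 and 803 ± 66.8 (SD, n = 3), a 2.86-fold rise, with a log2 fold change of 1.52 (SE 0.078, 95% confidence interval 1.34 to 1.70, edgeR adjusted p = 1.1e-05). It ranked 128 of the 13407 genes tested by rise and 68 by p. p15, its protein, is known as the inhibitor that TGF-β induces in many cells.

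Cdkn2a, its neighbour, rose far less. It had 971, 919 and 978 normalized counts in the control libraries and 1154, 1123 and 1075 under D-gal. The groups were separate, although the gap between the nearest libraries was narrow. The means were 956 ± 32.2 and 1117 ± 39.7 (SD, n = 3), 16.9% higher under D-gal (95% confidence interval 7.85% to 26.7%, log2 fold change 0.23, SE 0.050, edgeR adjusted p = 0.0103). How p16 and Arf share in the rise cannot be told apart from these counts.

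Cdkn2c fell. Its normalized counts were 661, 575 and 530 in the control group, against 356, 401 and 384 under D-gal. The control libraries spread more widely than those under D-gal, and the lowest of them was still above all D-gal libraries. The means were 589 ± 66.2 and 380 ± 22.8 (SD, n = 3), so that expression fell by 35.4% (95% confidence interval -44.5% to -24.9%, log2 fold change -0.63, SE 0.094, edgeR adjusted p = 0.00153). p18, its product, is known to take part in cell cycle exit during muscle and blood cell differentiation, and the gene is a known E2F target.

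Cdkn2d, whose product p19 is also an INK4 protein and is unrelated to p19Arf, had 207, 201 and 214 normalized counts in the control libraries and 220, 202 and 217 under D-gal. The groups overlapped (207 ± 6.70 against 213 ± 9.60, SD, n = 3). The difference was 2.85% with a 95% confidence interval of -10.5% to 18.2% (log2 fold change 0.040, SE 0.087, edgeR adjusted p = 0.757), so that a change of up to about that size in either direction cannot be told from none.

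Because levels of different genes can be compared only per length, counts were also scaled to the TMM-scaled library size and divided by the exon length (CPM per kb). On this scale Cdkn2a was the most abundant INK4 gene in both groups, at 48.6 ± 1.63 in the control group and 56.8 ± 2.02 under D-gal (SD, n = 3). Cdkn2b moved from 12.0 ± 0.499, a level within the spread of Cdkn2c (13.1 ± 1.47), to 34.4 ± 2.86, above Cdkn2c at 8.44 ± 0.505. The summed level of the 4 genes was 81.5 ± 2.85 in the control and 107.7 ± 3.48 in the D-gal group. Within this sum Cdkn2b took 14.8% ± 0.187 in the control group and 31.9% ± 1.81 under D-gal (SD, n = 3), and 30.3% to 33.9% in its single libraries. Cdkn2c took 14.4% to 17.4% and then 7.35% to 8.17%, and Cdkn2d 9.28% to 9.91% and then 6.87% to 7.87%. The share of Cdkn2a was 59.6% ± 1.08 and 52.7% ± 1.70 (SD, n = 3), lower under D-gal although its level was higher. Levels sum over transcripts of different lengths, and that of Cdkn2a includes the Arf transcript, so the sum and the shares are only approximate.

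Ratios of raw counts within a library do not depend on library size. The ratio of Cdkn2b to Cdkn2a was 0.298, 0.291 and 0.292 in the control libraries and 0.659, 0.784 and 0.716 under D-gal, a log2 difference of 1.29 (exact permutation p = 0.1, the smallest possible). Although the genes are neighbours, they thus changed unequally. The ratio of Cdkn2b to Cdkn2c lay between 0.438 and 0.539 in the control and between 2.00 and 2.20 in the D-gal libraries (log2 difference 2.14, exact permutation p = 0.1), so that counts of Cdkn2c exceeded those of Cdkn2b in every control library and fell short of them in every D-gal library.

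The CIP/KIP inhibitors gave no call. Cdkn1a, the most abundant of the 10 genes per length, had 5043, 4808 and 4780 normalized counts in the control libraries and 5045, 5044 and 5016 under D-gal. The first control library reached the D-gal values, and the other control libraries were slightly lower. The means were 4877 ± 145 and 5035 ± 16.1 (SD, n = 3), a difference of 3.24% with a 95% confidence interval of -1.98% to 8.73% (log2 fold change 0.046, SE 0.032, edgeR adjusted p = 0.315, exact permutation p = 0.2). With 4163 to 5892 counts per library, the interval leaves room for a rise of at most 8.73% at this confidence.

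Cdkn1b had 1141, 1016 and 1043 normalized counts in the control and 971, 902 and 972 in the D-gal libraries. The D-gal libraries were all lower, though by little. The means of 1067 ± 65.6 and 948 ± 40.2 (SD, n = 3) differed by -11.1% (95% confidence interval -19.3% to -2.01%, log2 fold change -0.17, SE 0.061), with an edgeR p of 0.0236 before and 0.0632 after adjustment. With robust estimation of the dispersion the adjusted p was 0.0489, so that this gene sits at the threshold. p27 is known to be controlled mostly by degradation of the protein, which RNA-seq does not measure.

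Cdkn1c, an imprinted gene expressed from the maternal allele, was the least abundant of the 10. It had 61.9, 68.5 and 76.8 normalized counts in the control libraries and 81.9, 72.1 and 114 under D-gal. One D-gal library lay within the control range and another well above both. The means were 69.1 ± 7.45 and 89.5 ± 22.2 (SD, n = 3), and the interval of the difference, from -5.60% to 77.4%, was the widest of the 10 genes (log2 fold change 0.37, SE 0.20, edgeR adjusted p = 0.185). Without D-gal replicate 3, the highest library, the log2 fold change was 0.16. At 66 to 95 counts per library, this interval is wide enough to hold both 0 and the change seen in Rb1.

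The ratio of Cdkn1a to Cdkn1b counts was 4.42, 4.73 and 4.58 in the control group, against 5.20, 5.59 and 5.16 under D-gal, a log2 difference of 0.22 (exact permutation p = 0.1). The groups did not overlap in this ratio, but they did not overlap in Cdkn1b alone either, and neither gene passed the edgeR test.

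Trp53, the gene of p53, did not pass the test. It had 4411, 4842 and 4221 normalized counts in the control libraries and 4664, 4669 and 4119 under D-gal. The ranges of the groups overlapped almost wholly. The means were 4492 ± 318 and 4484 ± 316 (SD, n = 3), a difference of -0.173% with a 95% confidence interval of -10.1% to 10.8% (log2 fold change -0.0025, SE 0.065, edgeR adjusted p = 0.983). Its sign changed with the processing, so no direction can be given.

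Rb1 had 559, 511 and 546 normalized counts in the control libraries and 663, 687 and 686 under D-gal. All D-gal libraries were higher, and the spread within each group was small against the gap. The means were 539 ± 24.8 and 679 ± 13.3 (SD, n = 3), 26.0% higher (95% confidence interval 14.7% to 38.4%, log2 fold change 0.33, SE 0.059, edgeR adjusted p = 0.00337). Exons of Rb1 overlap those of 2 genes on the other strand, Lpar6 by 408 bases and Rcbtb2 by 488 bases. Lpar6, a receptor for lysophosphatidic acid encoded within an Rb1 intron, rose as well (322, 351 and 333 counts in the control and 495, 451 and 407 in the D-gal libraries, log2 fold change 0.77, edgeR adjusted p = 5.7e-04), and Rcbtb2 had a log2 fold change of -0.041 (edgeR adjusted p = 0.819). Whether the authors counted by strand is not given in the sources used here, so the part of Lpar6 reads in the Rb1 counts was not tested.

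Lmnb1 encodes lamin B1, a B-type lamin that lines the inner nuclear membrane. It had 2458, 2433 and 2578 normalized counts in the control libraries and 1792, 1853 and 1815 under D-gal. The groups were far apart against the spread within them. The means were 2490 ± 77.5 and 1820 ± 30.8 (SD, n = 3), so that expression fell by 26.9% (95% confidence interval -31.2% to -22.3%, log2 fold change -0.45, SE 0.038, edgeR adjusted p = 9.0e-05). The ratio of Cdkn1a to Lmnb1 counts was 2.05, 1.98 and 1.85 in the control and 2.81, 2.72 and 2.76 in the D-gal libraries, a log2 difference of 0.50 (exact permutation p = 0.1). Lmnb1 alone changed by -0.45, whereas Cdkn1a, with a log2 fold change of 0.046 (edgeR adjusted p = 0.315), did not pass. No exon of Lmnb1 overlaps another gene.

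In the control group the order of levels per length was Cdkn1a (81.8 ± 2.43), Trp53 (66.2 ± 4.69), Lmnb1 (50.1 ± 1.56), Cdkn2a (48.6 ± 1.63), Cdkn1b (14.0 ± 0.859), Cdkn2c (13.1 ± 1.47), Cdkn2b (12.0 ± 0.499), Cdkn2d (7.84 ± 0.254), Rb1 (5.34 ± 0.246) and Cdkn1c (2.02 ± 0.218), in CPM per kb (SD, n = 3). In CPM per kb the control libraries of Lmnb1 and Cdkn2a overlapped, as did those of Cdkn1b and Cdkn2c and those of Cdkn2c and Cdkn2b. All control libraries of Cdkn1b were above those of Cdkn2b on this scale. The order depends on the length used, here the joined exons of all transcripts. In the deposited FPKM, control Trp53 (36.6, 40.1 and 34.8) lay below Lmnb1 (45.2, 44.7 and 47.2) and overlapped with Cdkn2a (40.7, 38.4 and 40.8). Control Cdkn1b (8.87, 7.89 and 8.08) lay below Cdkn2b (12.2, 11.3 and 12.0) and Cdkn2c. Lmnb1 and Cdkn2a did not overlap there. Under D-gal, Cdkn2a (56.8 ± 2.02) stood above Lmnb1 (36.6 ± 0.619), whose range was shared by Cdkn2b (34.4 ± 2.86). Cdkn2c (8.44 ± 0.505) then overlapped with Cdkn2d (8.06 ± 0.363) in CPM per kb. In FPKM the D-gal libraries of Cdkn2c (7.55, 8.57 and 8.20) were all below those of Cdkn2d (10.4, 9.60 and 10.3). The other levels under D-gal were 84.4 ± 0.271 for Cdkn1a, 66.1 ± 4.66 for Trp53, 12.4 ± 0.526 for Cdkn1b, 6.72 ± 0.132 for Rb1 and 2.62 ± 0.648 for Cdkn1c.

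**Figure D4:**
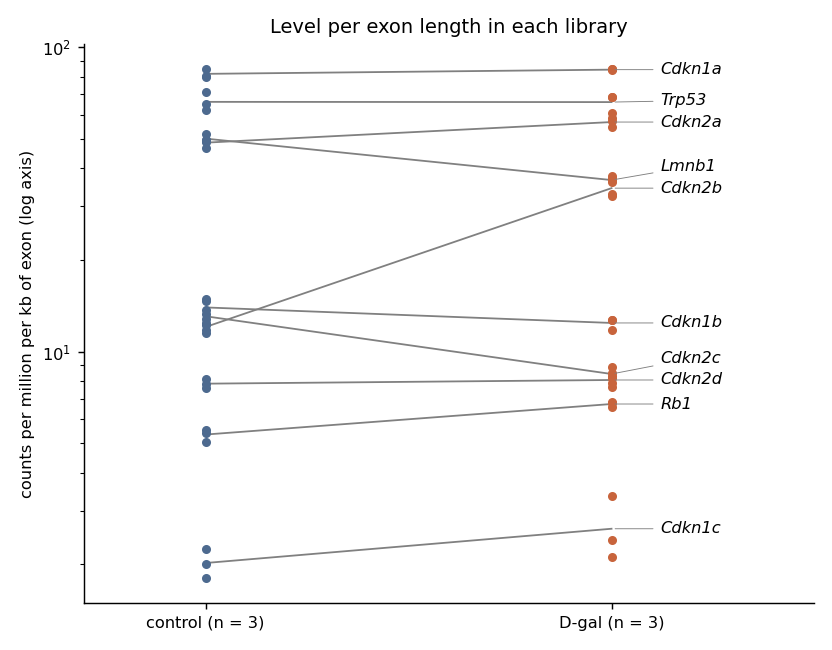
Level of each gene in each library, in CPM per kb of exon (log axis); points are libraries and lines join the group means (n = 3 each). Cdkn2b climbs from 12.0, close to Cdkn2c, to 34.4, close to Lmnb1, while Cdkn1a and Trp53 stay at the top on this scale. In the deposited FPKM, Trp53 lies below Cdkn2a under D-gal.

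Several of these counts carry an uncertainty of assignment. Of the words of 31 bases in the exons, 27.2% in Cdkn1c and 9.78% in Cdkn1a also occur in other genes, mostly in overlapping genes on the other strand (Gm44732 with 625 and AC167363.2 with 273 shared exon bases), as do 13.2% in Rb1. In Trp53 the share is 10.2%, mostly with the pseudogene Trp53-ps, which had at most 1 count in a library. Cdkn2a, Cdkn2b, Cdkn2c, Cdkn2d and Lmnb1 share none, and Cdkn1b shares 0.0874%.

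Around the 10 genes, 10 lists of partners, regulators and targets were examined. They were written from general knowledge, but with earlier results of these data known, and some genes are in several lists. Of the 143 genes tested, 31 were higher and 48 lower under D-gal, 55.2% in all, beside 16.9% higher, 17.8% lower and 34.8% in all among all genes tested. Of the 12 kinases and cyclins that the inhibitors bind, 6 fell and none rose (50% past the test, median log2 fold change -0.33). Ccnd1, cyclin D1 of the CDK4 and CDK6 complexes, fell from 8680 ± 84.1 to 5237 ± 403 normalized counts (SD, n = 3, log2 fold change -0.73, edgeR adjusted p = 4.9e-05). Ccna2 (-0.42, adjusted p = 2.1e-04), Ccnb1 (-0.64, adjusted p = 2.6e-04), Ccnb2 (-0.90, adjusted p = 6.1e-05) and Cdk1 (-0.33, adjusted p = 6.7e-04), which act from DNA replication to mitosis, fell too in log2 fold change. Of the kinases that the INK4 proteins inhibit, Cdk4 had a log2 fold change of -0.13 (adjusted p = 0.311) and Cdk6 of 0.087 (adjusted p = 0.452), and neither passed. Ccnd2 was at -0.063 (adjusted p = 0.134) and Ccnd3 at 0.38 with an SE of 0.47 (adjusted p = 0.577), its control libraries having 501, 2426 and 1259 counts.

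For the step into DNA replication, Ccne1 had a log2 fold change of -0.026 (edgeR adjusted p = 0.756) and Ccne2 of -0.35 (adjusted p = 0.0343). The call of Ccne2 was lost when any of 5 libraries was left out, with adjusted p of 0.0612, 0.0536 and 0.1 without control replicate 1, 2 or 3, and 0.102 and 0.1 without D-gal replicate 2 or 3. Cdk2 had 1717, 1830 and 1500 counts in the control and 1200, 1240 and 702 in the D-gal libraries (log2 fold change -0.34, adjusted p = 0.127). D-gal replicate 3 widened its spread, and without it the log2 fold change was -0.15 with an adjusted p of 0.0381.

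E2F target genes, most of them for replication of DNA, fell in 17 of 20 cases and rose in none (85% past the test, where 17.8% of all genes were lower, median log2 fold change -0.37). Uhrf1, which keeps DNA methylation through replication, changed by -0.61 (edgeR adjusted p = 5.6e-05) and Mcm5, a subunit of the replicative helicase, by -0.49 (adjusted p = 6.1e-05). Among 12 RB relatives, E2F factors and their DP partners, 2 rose and 3 fell (41.7% past the test, 34.8% of all genes, median log2 fold change -0.038). Rbl1, the RB relative p107 and itself a known E2F target, fell and had a log2 fold change of -0.74 (adjusted p = 1.4e-04), and so did E2f8, a repressing E2F factor (-0.49, adjusted p = 0.00262). Rbl2, the relative p130 of resting cells, had a log2 fold change of 0.16 (adjusted p = 0.0192), a call that was lost without control replicate 1 (adjusted p = 0.0678), control replicate 3 (0.0514) or D-gal replicate 3 (0.064). Tfdp2, a DP partner, rose from 400 ± 111 to 1076 ± 21.5 normalized counts (SD, n = 3, log2 fold change 1.42, adjusted p = 6.0e-04). The relatives of Rb1 thus had unlike values.

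p53 targets other than Cdkn1a rose in 10 of 25 cases and fell in 2, 48% past the test (median log2 fold change 0.092), where 16.9% of all genes were higher and 17.8% lower. Ccng1, cyclin G1, rose from 16806 to 21328 normalized counts (log2 fold change 0.34, edgeR adjusted p = 4.1e-05) and Eda2r, a receptor of the TNF family, by 0.51 on the log2 scale (adjusted p = 6.3e-05). Both had the smallest p of the list and do not stand for all of it. Named after their values were seen, the 2 that fell were Zmat3 (-0.20, adjusted p = 0.00567) and Bbc3 (-0.37, adjusted p = 0.0150). Mdm2, the ubiquitin ligase of p53 and also its target, had a log2 fold change of 0.081 (adjusted p = 0.0711). Of the 12 p53 regulators, 4 rose and 2 fell (50% past the test, 34.8% of all genes, median 0.035), among them the kinase gene Hipk2 (0.55, adjusted p = 1.7e-04) and the phosphatase gene Ppm1d (0.45, adjusted p = 4.1e-04). Mdm4, a relative of Mdm2, had a log2 fold change of -0.12 (adjusted p = 0.0394), and its call was lost when any library but D-gal replicate 2 was left out (adjusted p from 0.0849 to 0.116). The list of targets holds genes that other factors also induce.

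Of the Polycomb and other regulators of the Cdkn2a locus, 3 of 21 rose and 8 fell, 52.4% past the test (median log2 fold change -0.087). Among all genes 16.9% were higher, so that the 3 rises are no more than the background, and 17.8% were lower. Ets2, an activator of p16 transcription, rose by 0.98 on the log2 scale (edgeR adjusted p = 9.9e-06). Id1, which opposes ETS factors there, fell by 0.40 (adjusted p = 7.8e-05). These 2 genes had the smallest p of the list and do not stand for all of it. Named after their values were seen, Tbx2 had a log2 fold change of 0.85 (adjusted p = 0.0255) and Kdm6b of -0.18 (adjusted p = 0.0288). What the list as a whole means for Cdkn2a was not tested. Of 5 genes beside Cdkn2a and Cdkn2b, 3 could be tested and 1 passed: Klhl9 had a log2 fold change of 0.15 (adjusted p = 0.0202), Mtap of 0.065 (adjusted p = 0.322) and Elavl2 of 0.093 (adjusted p = 0.687). The call of Klhl9 was lost without control replicate 2 (adjusted p = 0.0709), control replicate 3 (0.0649) or D-gal replicate 3 (0.0657). These 3 log2 fold changes stand beside 1.52 in Cdkn2b.

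Among 9 genes for turnover and transcription of p27, 3 rose and none fell (median log2 fold change 0.048), and the 33.3% that passed are close to the 34.8% of all genes. Foxo3, a transcription factor that induces Cdkn1b, had a log2 fold change of 0.27 (edgeR adjusted p = 7.9e-04) and Uhmk1, a kinase that phosphorylates p27, of 0.20 (adjusted p = 0.00596). Of 15 genes of the nuclear lamina and envelope, 2 rose and 5 fell, 46.7% past the test (median log2 fold change -0.086), beside 16.9% higher and 17.8% lower among all genes. Syne2, which links the nucleus to the cytoskeleton, fell with a log2 fold change of -0.96 (adjusted p = 4.0e-05) and Lbr, the lamin B receptor, with one of -0.44 (adjusted p = 4.2e-04). Lmna, for lamins A and C, had a log2 fold change of -0.30 (adjusted p = 0.0266), a call lost without control replicate 1, 2 or 3 (adjusted p = 0.0684, 0.0634 and 0.0578), and Lmnb2, the other B-type lamin, of -0.13 (adjusted p = 0.112).

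Other genes used as senescence markers moved both ways, with 6 of 18 tested higher and 6 lower (66.7% past the test, 34.8% of all genes, median log2 fold change -0.16). The secreted IGF-binding proteins Igfbp5 (log2 fold change 3.80, edgeR adjusted p = 3.9e-06) and Igfbp7 (0.96, adjusted p = 3.3e-06) rose. Igfbp3, another of them in the list and named here after its values were seen, fell (log2 fold change -1.49, adjusted p = 0.00143). Igfbp5 was singled out by the study on these samples. Glb1, which encodes the lysosomal enzyme behind β-galactosidase staining, had a log2 fold change of -0.034 (adjusted p = 0.685). Mki67, a marker of proliferating cells named here after its values were seen, fell, with a log2 fold change of -0.62 (adjusted p = 1.5e-05). It moved in the same direction as the 6 cyclins and CDKs and the 17 E2F targets that fell, Cdkn2c and Lmnb1, and the part of the share of cycling cells in those changes was not tested.

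**Figure D5:**
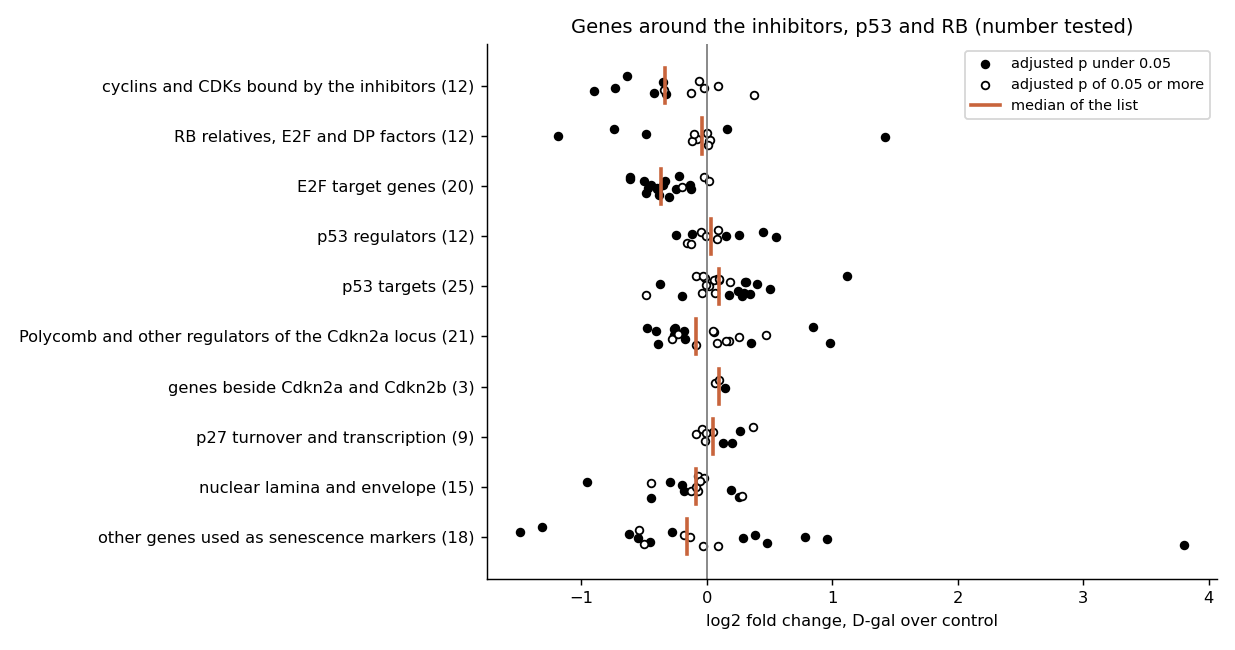
Log2 fold change (D-gal over control) of each tested gene in the 10 lists; filled points passed an adjusted p of 0.05 in edgeR, orange bars are list medians, and the number tested is in parentheses. Cyclins and E2F targets lie mostly left of 0, with medians of -0.33 and -0.37, and p53 targets spread around 0.092.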

How the data were processed

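RNA-seq of NOR-10 cells was analysed in 3 control and 3 D-gal libraries. Groups and replicate numbers came from the labels, dose and duration from the study's methods. Those methods name a small RNA library kit, whereas the labels name an RNA-seq kit, and the library type was taken from the labels. The authors checked and trimmed the reads, and the submitters' processing notes name HISAT2 (2.0.4). The counting tool, its strand setting and the annotation are not given in the sources used here. The deposited table holds whole-number counts per gene without normalization, and FPKM values, which the authors scaled by gene length and library total and which served only as an alternative. A column of the table was matched to each library by name.

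Counts were compared with edgeR 4.0.16 (R 4.3.3): TMM normalization (factors 0.9855 to 1.015), filterByExpr, quasi-likelihood test, Benjamini-Hochberg adjustment over 13407 genes, and the thresholds of the study (adjusted p 0.05, log2 fold change 1). SE was taken as the log2 fold change over the root of F. The biological coefficient of variation was 9.47%. Replicate libraries did not agree within sampling noise (chi-square over its degrees of freedom 6.00 to 9.42). Libraries held 13759108 to 20830349 counts. Exon lengths, overlaps and shared words of 31 bases came from GENCODE M21 (GRCm38), in which 6 of the 10 genes have the start and end of the table. Promoter windows came from RefSeq.

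The genes and lists were chosen with earlier results of these data known. Named were the 10 genes, a set of 18 partners (Ccnd1, Ccnd2, Ccnd3, Cdk4, Cdk6, Ccne1, Ccne2, Cdk2, Ccna2, Cdk1, Mdm2, Mdm4, Rbl1, Rbl2, Lmna, Lmnb2, Mtap and Glb1) and the 2 further genes of smallest p in each list. Functions were tested on simulated data. The alternatives were DESeq2 (1.42.0), RLE size factors, no filter, at least 10 counts in every library, robust dispersion, a replicate block, leaving out each replicate, limma (3.58.1) on log2(FPKM + 1) or log2(FPKM + 0.1), and, added after the data were seen, counts thinned to the smallest library.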

Additional observations from a re-analysis of the deposited data

How the results depend on the processing

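Of the 10 genes, 3 higher and 2 lower passed under every alternative run, except that robust dispersion added Cdkn1b to the lower genes. Cdkn2b kept the only log2 fold change of at least 1. Over 15 settings the log2 fold change ranged from 1.45 to 1.55 for Cdkn2b, from 0.20 to 0.26 for Cdkn2a, from 0.30 to 0.36 for Rb1, from -0.70 to -0.54 for Cdkn2c and from -0.47 to -0.41 for Lmnb1. Those of Cdkn1a (0.031 to 0.081), Cdkn1c (0.16 to 0.51) and Cdkn2d (0.016 to 0.078) never passed. Genes of the lists numbered 26 to 33 higher and 41 to 49 lower.

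The sign of Trp53 turned with at least 10 counts in every library (9.7e-05), limma on log2(FPKM + 1) (0.031) or log2(FPKM + 0.1) (0.032) and thinned counts (0.0023), and lay between -0.046 and 0.056 when each replicate was left out. With limma on log2(FPKM + 1), Ccne1 (0.0074) and Glb1 (5.1e-04) also turned. Leaving out each replicate gave -0.028 to 0.91 for Ccnd3, -0.057 to 0.0058 for Ccne1 and -0.011 to 0.22 for Elavl2. None of these passed the test in either direction, and the cause was not tested. Beside the losses with a library left out, the call of Mdm4 was lost with DESeq2 (adjusted p = 0.152), no filter (0.0589), limma on log2(FPKM + 1) (0.314) and thinned counts (0.0882), that of Ccne2 with this limma fit (0.0622), that of Lmna with robust dispersion (0.0905) and this limma fit (0.0515), and that of Rbl2 with DESeq2 (0.0573). Mdm2 passed with limma on log2(FPKM + 1) (adjusted p = 0.0251).

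Replicate numbers were not used to pair the samples, and the correlation of the deviations of same-numbered libraries was -0.0018, -0.0057 and 0.021. Values this small show no shared variation, but cannot tell whether same-numbered libraries were prepared together. With the number as a block, 3 of the 10 genes were higher and 2 lower, 1 had a log2 fold change of at least 1, the lists had 28 higher and 47 lower, and 3982 of all genes passed (4661 without the block). The block also cost the calls of Ccne2 (adjusted p = 0.0549), Mdm4 (0.0843) and Klhl9 (0.0528). Cdkn1c had the fewest counts of the 10 genes, and without D-gal replicate 3 its log2 fold change was 0.16.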
